A study of Mus musculus with 272 samples.

Results

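The genes that build and run the contractile apparatus of striated muscle were examined in the chromatin of mouse skeletal muscle stem cells (MuSCs), the resident stem cells that lie on muscle fibres and express Pax7. The 43 genes were taken by name from GENCODE M21 and are 43 of the 21938 protein-coding genes on the assembled chromosomes and of 55413 annotated genes in all. They comprised 14 thin filament genes, 17 thick filament and M-band genes, 6 Z-disc genes and 6 genes of calcium handling and energy supply. By fibre type, 6 encoded embryonic or cardiac isoforms, 10 slow isoforms, 15 fast isoforms and 12 proteins common to both fibre types.

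A sarcomere is the repeating unit of the myofibril, in which myosin thick filaments pull on actin thin filaments that are anchored at the Z-disc. Calcium released from the sarcoplasmic reticulum binds troponin C and moves tropomyosin off actin, so that the myosin heads can bind. Slow, fast, embryonic and cardiac muscle use different members of the same gene families, and a MuSC builds no sarcomere until its progeny differentiate and fuse. H3K4me3 marks the start sites of active and poised genes, H3K27ac marks active promoters and enhancers, H3K27me3 is the mark of Polycomb repression, and ATAC-seq cuts where DNA is accessible.

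Of the 272 samples of the series, 8 had a peak list and were used. They are ATAC-seq and ChIP-seq for H3K4me3, H3K27ac and H3K27me3, each as replicates 1 and 2. All 8 are labelled as MuSCs of skeletal muscle, and the study sorted its MuSCs as GFP+ mononuclear cells from hindlimb muscles of Pax7Cas9 mice. In these mice Cre expressed from Pax7 switches on a Rosa26 Cas9-EGFP allele, so that GFP marks cells of the Pax7 lineage. The study's ChIP-seq and ATAC-seq methods do not name the mice. That all 8 libraries share the Cas9 allele follows from the sorting method alone. Strain and age were not given for these 8 libraries, nothing said that replicates came from separate animals, and no other condition, myoblast or myofibre was profiled. There was therefore no contrast between groups, and all comparisons are counts between genes within these libraries, with no test.

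The cell label was checked against marker genes. All 12 MuSC markers had ATAC-seq and H3K4me3 promoter peaks in both replicates and 11, all but *Calcr*, had H3K27ac. The H3K27ac fold enrichment in replicates 1 and 2 was 21.5 and 19.5 at *Spry1*, a receptor kinase inhibitor, and 15 and 14.7 at *Pax7*, the transcription factor that defines these cells. It was 13.4 and 10.7 at *Sdc4*, a surface proteoglycan, and 15.5 and 10.6 at *Myod1*, the myogenic regulator. Promoter H3K27ac in both replicates was found at 1 of 8 fibro-adipogenic markers, 1 of 8 endothelial markers, 1 of 8 blood markers and 0 of 8 neuronal markers. ATAC-seq peaks in both replicates were present at 4, 6, 6 and 7 of these markers, and H3K4me3 at 3, 3, 4 and 3. The H3K27ac folds were 8.81 and 6.21 at fibro-adipogenic *Dpt*, 11 and 10.2 at endothelial *Tek* and 16.9 and 8.09 at the blood marker *Cd68*. These folds lay within the range of the 11 MuSC markers. The *Cd68* peaks did not lie nearest to a start of *Cd68* itself in both replicates. Of all protein-coding genes 67.8% had such promoter peaks of ATAC-seq, 60.8% of H3K4me3 and 46.6% of H3K27ac. The share of other cells in the sort, and their part in the values below, was not tested. In such bulk libraries a peak in few cells and a weak peak in all cells cannot be told apart.

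Promoter sequences of 36 of the 43 genes were found in RefSeq, from 250 bases before to 50 bases after the start (GRCm38.p6). *Actn3*, *Tnnt3*, *Tnni2*, *Neb*, *Myom2*, *Tcap* and *Myoz1* had no entry. The first set shows the contrast that the chromatin values turn on, between both starts of slow tropomyosin *Tpm3* and that of *Mybpc1*. Capitals mark the E-box form CAGCTG, the TATA element TATAAA, the MEF2 site and the CArG box on either strand.
*Tpm3*, first start, chr3:90072401-90072700, plus strand: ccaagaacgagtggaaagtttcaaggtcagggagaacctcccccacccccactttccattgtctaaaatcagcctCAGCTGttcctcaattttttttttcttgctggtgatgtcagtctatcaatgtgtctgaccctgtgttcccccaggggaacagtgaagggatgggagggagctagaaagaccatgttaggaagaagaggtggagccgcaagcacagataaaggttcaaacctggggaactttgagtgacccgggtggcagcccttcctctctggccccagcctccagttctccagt
*Tpm3*, internal start, chr3:90079271-90079570, plus strand: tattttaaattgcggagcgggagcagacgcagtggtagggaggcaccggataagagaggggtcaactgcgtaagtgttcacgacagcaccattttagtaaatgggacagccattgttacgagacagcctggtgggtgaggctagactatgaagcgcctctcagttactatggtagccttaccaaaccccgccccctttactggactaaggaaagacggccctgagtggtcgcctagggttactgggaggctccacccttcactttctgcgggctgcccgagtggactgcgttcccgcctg
*Mybpc1*, chr10:88605103-88605402, minus strand: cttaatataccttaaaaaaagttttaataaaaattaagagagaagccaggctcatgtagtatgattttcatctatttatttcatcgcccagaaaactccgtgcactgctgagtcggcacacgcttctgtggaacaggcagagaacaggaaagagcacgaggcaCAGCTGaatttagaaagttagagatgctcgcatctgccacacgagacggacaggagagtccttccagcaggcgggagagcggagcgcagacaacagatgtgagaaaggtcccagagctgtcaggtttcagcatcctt

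The second set shows skeletal and cardiac alpha-actin, each with a CArG box, the element that serum response factor binds. It is at position −73 for *Acta1* and −47 for *Actc1*, counted from the start of the RefSeq entry at 0. In this frame TATAAA is at −7 for *Acta1* and 33 for *Actc1*. The GENCODE start of *Acta1* is not at the same base, so that distances from other annotated starts differ.
*Acta1*, chr8:123894726-123895025, minus strand: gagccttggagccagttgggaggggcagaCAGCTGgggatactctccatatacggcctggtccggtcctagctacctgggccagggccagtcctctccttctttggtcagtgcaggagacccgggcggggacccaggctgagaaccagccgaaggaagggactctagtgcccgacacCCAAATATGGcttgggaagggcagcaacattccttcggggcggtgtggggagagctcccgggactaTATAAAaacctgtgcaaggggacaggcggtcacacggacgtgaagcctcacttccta
*Actc1*, chr2:114052826-114053125, minus strand: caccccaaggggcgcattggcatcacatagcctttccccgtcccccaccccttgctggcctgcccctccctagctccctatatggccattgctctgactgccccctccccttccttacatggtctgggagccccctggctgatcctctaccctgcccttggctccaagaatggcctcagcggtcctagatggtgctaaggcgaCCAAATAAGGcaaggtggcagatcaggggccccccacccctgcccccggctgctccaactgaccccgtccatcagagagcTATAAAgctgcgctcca

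The third set is from the skeletal myosin heavy chain cluster and holds the embryonic gene *Myh3* and the fast genes *Myh1* (type IIx) and *Myh4* (type IIb). Each carries TATAAA 29 to 32 bases before the start. *Myh1* and *Myh4* also hold a MEF2 site, in which TATAAA can be contained, at −211 and −182.
*Myh3*, chr11:67078050-67078349, plus strand: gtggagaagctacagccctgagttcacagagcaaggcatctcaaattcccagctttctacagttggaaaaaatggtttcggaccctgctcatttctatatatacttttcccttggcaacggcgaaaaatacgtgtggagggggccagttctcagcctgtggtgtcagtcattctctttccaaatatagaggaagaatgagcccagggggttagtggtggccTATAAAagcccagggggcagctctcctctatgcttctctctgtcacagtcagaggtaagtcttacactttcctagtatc
*Myh1*, chr11:67199852-67200151, plus strand: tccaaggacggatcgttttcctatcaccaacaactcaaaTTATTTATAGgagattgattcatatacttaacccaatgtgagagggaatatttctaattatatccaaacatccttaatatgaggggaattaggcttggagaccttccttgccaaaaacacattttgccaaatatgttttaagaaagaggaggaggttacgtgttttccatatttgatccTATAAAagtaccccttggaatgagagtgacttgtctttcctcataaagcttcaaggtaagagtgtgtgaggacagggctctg
*Myh4*, chr11:67237562-67237861, plus strand: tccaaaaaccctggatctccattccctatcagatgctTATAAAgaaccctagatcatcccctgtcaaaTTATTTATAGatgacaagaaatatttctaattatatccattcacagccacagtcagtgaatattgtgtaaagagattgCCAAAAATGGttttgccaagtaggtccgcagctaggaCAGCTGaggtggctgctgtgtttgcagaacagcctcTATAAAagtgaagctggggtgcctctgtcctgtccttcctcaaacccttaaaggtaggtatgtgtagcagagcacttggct

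Each motif was counted on both strands in the 43 promoter sequences of the 36 genes, since 7 genes had a pair of entries, and in all 32851 RefSeq promoters of that length. CAGCTG, a form of the E-box CANNTG that myogenic factors favour, was in 17 of the 43 sequences (39.5%) against 16.3% of all promoters. CANNTG itself was in 83.7% against 72.3%, and TATAAA in 23.3% against 13.6%. The MEF2 site was in 16.3% against 3.19%, and the CArG box in 16.3% against 1.63%. Paired sequences can overlap and hold the same site, as for the CArG box of *Ldb3* and a CAGCTG of *Tnni1*. By gene, CAGCTG was in 15 of the 36, TATAAA in 10, the MEF2 site in 7 and the CArG box in 6. The median ratio of observed to expected CpG was 0.238 for the gene sequences and 0.384 for all promoters. A match of letters is a description and shows no binding.

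The promoter of a gene was taken as 3 kb either side of any of its annotated start sites, and a gene was counted when a listed peak overlapped this window in both replicates. ATAC-seq peaks were found at 38 of the 43 genes (88.4%), against 67.8% of protein-coding genes. H3K4me3 was found at 16 (37.2%), against 60.8%. H3K27ac was found at 14 (32.6%), against 46.6%, and H3K27me3 at 4 (9.3%), against 4.81%. Within these windows the share was larger than that of protein-coding genes for accessibility and smaller for both active marks. The 43 genes had more start sites, a median of 5 against 3, and longer windows, a median of 12002 bp against 8823 bp, so that a peak had more room to fall in them. Narrower measures, in which a gene with more starts or entries still had more chances to be counted, gave another picture for accessibility. An ATAC-seq summit lay within 500 bp of a start at 25 genes in replicate 1 (58.1%), against 65%, and at 28 in replicate 2 (65.1%), against 62.7%. ATAC-seq peaks covered any printed-length RefSeq promoter of 15 and 16 of the 36 genes that have one. Of all promoter sequences 44% and 42.7% were covered, which is a share by sequence and not by gene. Since 7 of the 36 genes had a pair of sequences, these values are not in the same unit. By these measures accessibility was not consistently above that of protein-coding genes. For H3K4me3 a summit lay within 500 bp at 11 genes (25.6%), against 57.8%, and at 9 (20.9%), against 56.5%, so that the smaller share held on this measure too.

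Accessible sites were mostly of moderate strength within their list. The fold enrichment of the strongest ATAC-seq promoter peak ranged from 3.83 to 94.1 with a median of 9.85 in replicate 1, and from 4.33 to 16.9 with a median of 10.2 in replicate 2. Below the median of protein-coding genes with a promoter peak lay 29 of 41 genes in replicate 1 and 26 of 38 in replicate 2. For H3K27ac 16 of 20 and 11 of 14 genes lay below that median. The strongest peaks of both replicates were at separate, non-overlapping sites for 6 of the 38 genes with ATAC-seq in both, *Myl4*, *Tnnt3*, *Neb*, *Mybpc1*, *Myom1* and *Myom3*, and the folds given for these below are of different sites. The same held for H3K4me3 at *Tnni3*, for H3K27ac at *Tnnt1* and *Mybpc1*, and for H3K27me3 at *Myl3* and *Cacna1s*.

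**Figure D1:**
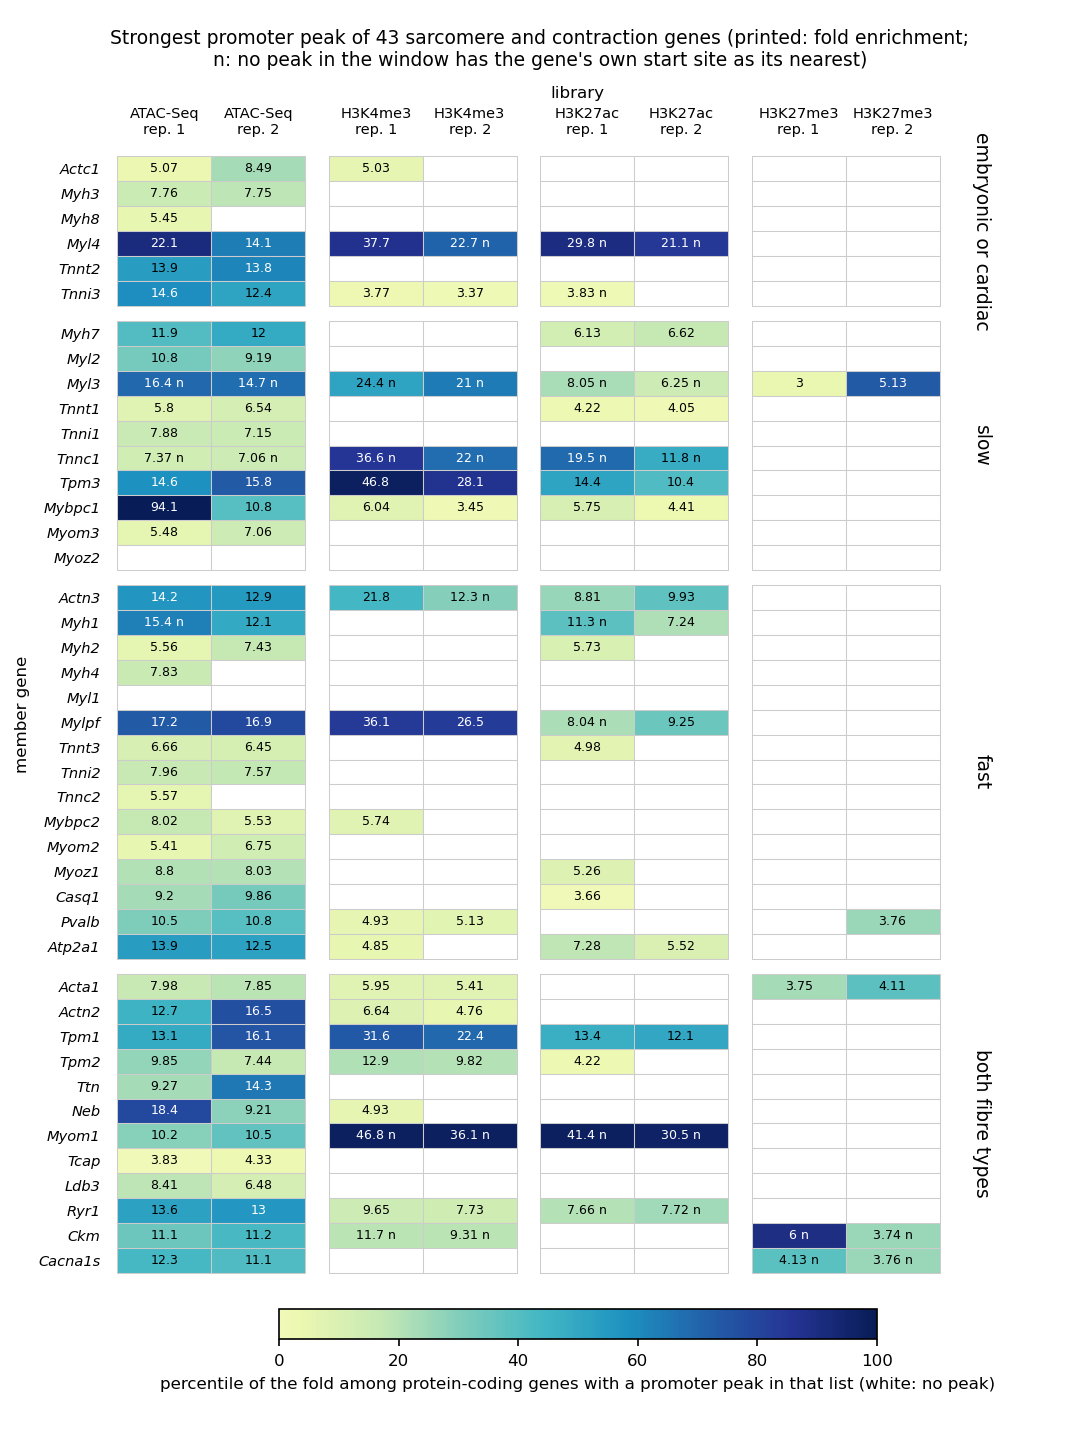
Strongest promoter peak of each gene (rows, by isoform class) in the 8 libraries (columns). Numbers are fold enrichments, colour is the percentile among protein-coding genes with a promoter peak in the same list, white is no peak, and n marks windows in which every peak summit lies nearer to the start of another gene. The ATAC-seq columns are filled for 41 and 38 genes, the H3K4me3 columns for 20 and 16.

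The most frequent promoter state was open only, meaning an ATAC-seq peak in both replicates with none of the histone marks in both. It held 17 of the 43 genes, against 6.91% of protein-coding genes, which had shorter windows and fewer starts at the median. Of 41 other sarcomere genes, 17 were open only too. So were 3 of 8 endothelial, 2 of 8 blood, 2 of 8 neuronal and 1 of 8 fibro-adipogenic markers. Of 12 cytoskeletal genes 1 was open only, and of 12 MuSC markers 0. The state was thus not particular to the 43 genes. Among the 43, H3K4me3 with H3K27ac held 10 genes, against 46.2%, and H3K4me3 alone held 4, against 11.5%. H3K27ac without H3K4me3 held 4 genes, *Myh1*, *Myh7*, *Tnnt1* and *Atp2a1*, against 0.442%. H3K4me3 with H3K27me3 held 2, against 3.06%, and H3K27me3 without H3K4me3 held 1, against 0.953%. No peak in both replicates was found at 5 genes, against 30.9%.

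Of the 17 open-only genes, 10 had no histone peak in either replicate, namely *Myh3*, *Myl2*, *Tnnt2*, *Tnni1*, *Tnni2*, *Ttn*, *Myom2*, *Myom3*, *Tcap* and *Ldb3*. The other 7, *Actc1*, *Myh2*, *Tnnt3*, *Neb*, *Mybpc2*, *Myoz1* and *Casq1*, had an H3K4me3 or H3K27ac peak in the window in replicate 1 only. Replicate 1 also had the longer list for each of these assays: 140716 against 94382 peaks for ATAC-seq, 20512 against 18001 for H3K4me3 and 24209 against 18584 for H3K27ac. For H3K27me3 replicate 2 had more, 10458 against 6064.

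Many of the marked windows also held the start of a neighbouring gene. In all 11 of the genes, *Actn3*, *Myl3*, *Myl4*, *Mylpf*, *Tnni2*, *Tnnc1*, *Myom1*, *Tcap*, *Ckm*, *Atp2a1* and *Cacna1s*, had another protein-coding start within 3 kb. The distance was 43 bp from *Myl4* to *Cdc27*, a subunit of the anaphase-promoting complex, and 79 bp from *Myom1* to *Myl12a*, a non-muscle myosin light chain. It was 422 bp from *Mylpf* to *Tbc1d10b* and 1486 bp from *Tnnc1* to *Nisch*. These distances are between the closest annotated starts of both genes. The RefSeq promoter of *Myl4* lay at the shared start. Those of *Myom1* (chr17:71019307-71019606), *Myl3* (chr9:110763428-110763727) and *Ckm* (chr7:19410844-19411143) lay elsewhere. No peak covered them but an ATAC-seq peak of 3.66 at *Ckm* in replicate 2.

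When only peaks whose summit lay nearest to a start of the gene itself were counted, ATAC-seq fell by few genes and both active marks fell by more. ATAC-seq then held 35 of 43 genes, against 61.5% of protein-coding genes. H3K4me3 held 10, against 51.8%, H3K27ac held 7, against 38.8%, and H3K27me3 held 2, against 4.32%. H3K4me3 with H3K27ac fell from 10 genes to 3, *Tpm1*, *Tpm3* and *Mybpc1*. H3K27ac without H3K4me3 again held 4, with *Actn3* in place of *Myh1*, against 2.32% of protein-coding genes on this measure.

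**Figure D2:**
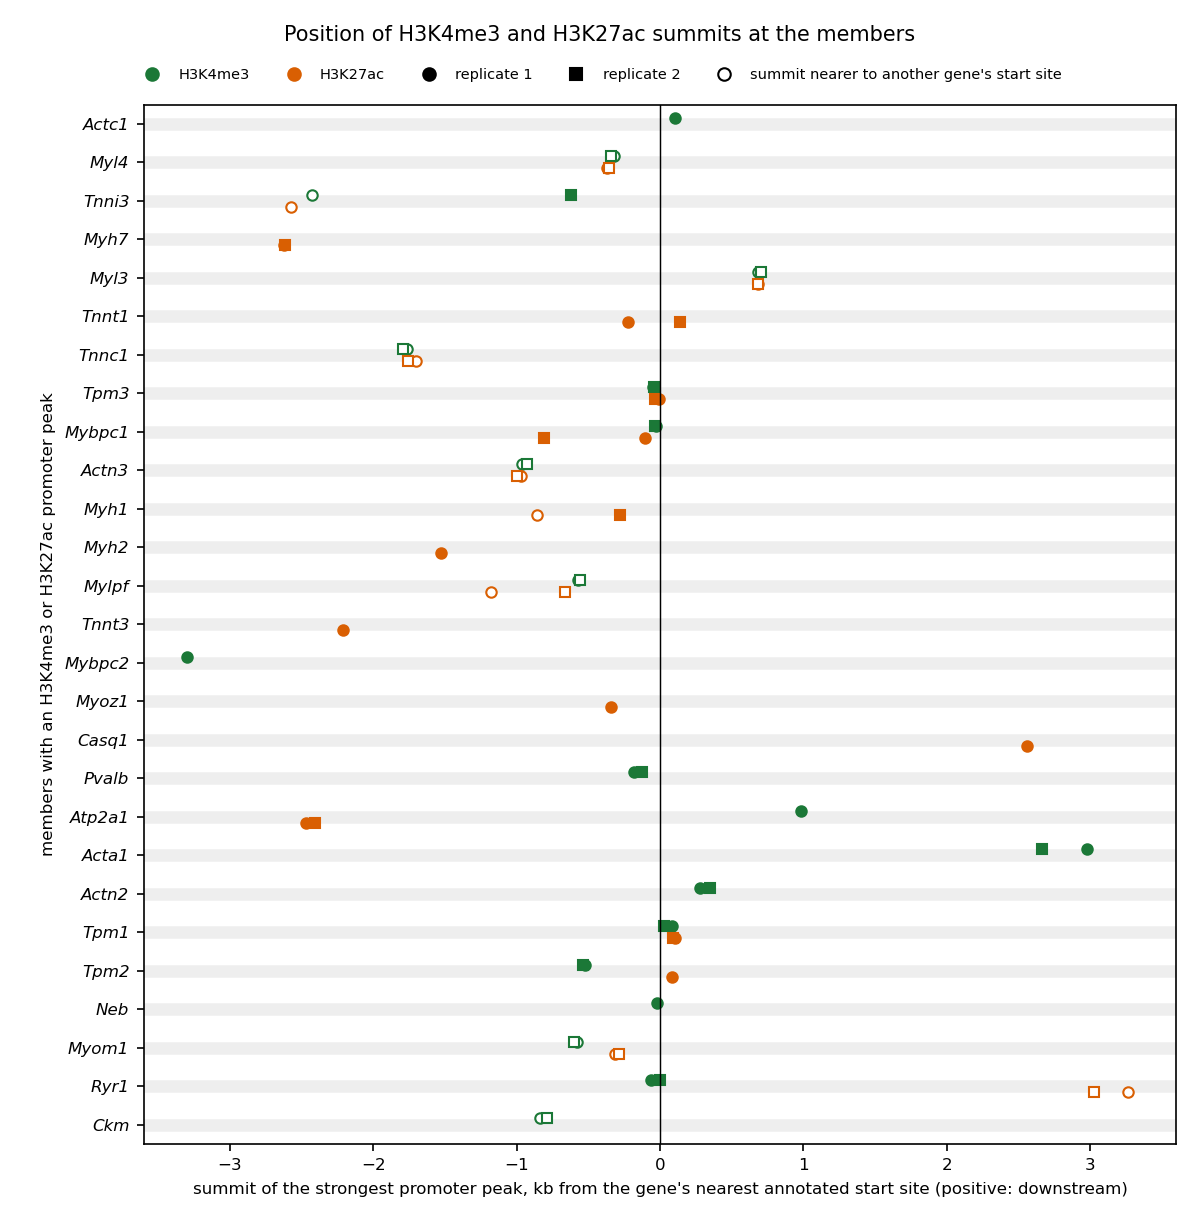
Summit of the strongest H3K4me3 (green) and H3K27ac (orange) promoter peak, in kb from the nearest annotated start of the gene, for the genes with such a peak. Circles are replicate 1, squares replicate 2, and hollow symbols lie nearer to the start of another gene; the summits of *Tpm1*, *Tpm3* and *Mybpc1* are filled, and those of *Myl3*, *Myl4*, *Tnnc1*, *Mylpf* and *Myom1* are hollow.

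Where H3K4me3 covered a RefSeq promoter sequence of the genes in both replicates, that sequence was mostly rich in CpG. Peaks elsewhere in the windows are not counted here. Among them are the strongest H3K4me3 peaks of *Myom1*, *Tnnc1*, *Mylpf* and *Myl3*. A ratio of observed to expected CpG of at least 0.6 was found for 1 promoter sequence each of *Actn2*, *Myh2*, *Myl4*, *Tpm1*, *Tpm3*, *Mybpc1* and *Pvalb*. H3K4me3 covered 6 of these 7 sequences in both replicates, all but *Myh2*, which is near the 88.2% of all such promoters. Among the other 36 sequences it covered 2, those of *Tpm2* and *Ryr1*, against 12.9%. ATAC-seq covered the same 6 of the 7, against 86%, and 10 of the 36, against 16.6%. The 10 include both overlapping sequences of *Ldb3*. For the other starts the H3K4me3 count was thus below the share of all such promoters and the ATAC-seq count above it, and neither difference was tested.

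Among the thin filament genes 13 of 14 had ATAC-seq promoter peaks in both replicates, 6 had H3K4me3, 4 had H3K27ac and 1 had H3K27me3. Of protein-coding genes 67.8%, 60.8%, 46.6% and 4.81% had such peaks. The tropomyosins, the coiled coils that run along actin, carried the strongest marks of their own. *Tpm3* (chr3:90072649-90100902, plus strand) had H3K4me3 folds of 46.8 in replicate 1 and 28.1 in replicate 2, at percentiles 98 and 87.4 of the list. Its H3K27ac folds were 14.4 and 10.4, its ATAC-seq folds 14.6 and 15.8, and H3K27me3 had no peak.

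All of these strongest *Tpm3* histone summits lay at internal starts, 7.19 to 7.24 kb into the gene. The printed internal sequence was covered by H3K4me3 and ATAC-seq peaks in both replicates and by H3K27ac in replicate 2, the replicate 1 peak beginning just downstream. It had a CpG ratio of 0.651 and none of the marked motifs. The first start had a CpG ratio of 0.148 and a CAGCTG, and no peak of any library covered its sequence. The internal start gives rise to the shorter, non-muscle tropomyosins, as background.

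*Tpm1* (chr9:67022590-67049406, minus strand) was marked at 2 places among its 21 annotated starts. Its strongest H3K4me3 peaks, 31.6 and 22.4, lay at an internal start, and the peaks over the first start reached 22.6 and 15.6. Its H3K27ac folds were 13.4 and 12.1 and its ATAC-seq folds 13.1 and 16.1, with no H3K27me3. The third tropomyosin, *Tpm2*, had H3K4me3 folds of 12.9 and 9.82 and ATAC-seq folds of 9.85 and 7.44. Its H3K27ac peak, 4.22, was in replicate 1 only.

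The actins were accessible with little mark. *Acta1*, skeletal alpha-actin (chr8:123891769-123894751, minus strand), had ATAC-seq folds of 7.98 and 7.85, H3K4me3 folds of 5.95 and 5.41, H3K27me3 folds of 3.75 and 4.11 and no H3K27ac peak. Its H3K4me3 summits did not lie at the start but 2982 and 2666 bp downstream, at the end of the gene, which is 2.98 kb long. Its H3K27me3 peaks had −log10 q values of 0.934 and 2.11, so that the first does not pass a q limit of 0.05. Over the printed *Acta1* promoter only ATAC-seq had peaks, of 4.12 and 4.26. *Actc1*, cardiac alpha-actin and the actin of early muscle, had ATAC-seq folds of 5.07 and 8.49 and an H3K4me3 peak of 5.03 in replicate 1 only.

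The troponins sense calcium on the thin filament. *Tnnc1*, slow troponin C, had H3K4me3 folds of 36.6 and 22, H3K27ac folds of 19.5 and 11.8 and ATAC-seq folds of 7.37 and 7.06, and each of these strongest summits lay nearest to *Nisch*. No peak in its window lay nearest to *Tnnc1*. *Tnnc2*, fast troponin C, had an ATAC-seq peak of 5.57 in replicate 1 only and no H3K4me3 or H3K27ac peak within 5 kb of its starts. *Neb*, nebulin, the ruler of thin filament length, had an ATAC-seq fold of 9.21 in replicate 2, 22 bp from a start, and an H3K4me3 peak of 4.93 in replicate 1 only. Its strongest ATAC-seq peak in replicate 1, 18.4, lay at another start and overlapped no peak of replicate 2.

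The genes of troponin T and troponin I lie in 3 neighbouring pairs. In the fast pair, *Tnni2* had ATAC-seq folds of 7.96 and 7.57 and *Tnnt3* of 6.66 and 6.45. The H3K27ac peak of *Tnnt3*, 4.98, was in replicate 1 only, and the other histone peaks of this 94.2 kb region lay nearest to *Lsp1*, a leukocyte-expressed gene. The pair was therefore accessible without a replicated mark of its own.

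In the pair of slow *Tnni1* and cardiac *Tnnt2*, the ATAC-seq folds were 7.88 and 7.15 for *Tnni1* and 13.9 and 13.8 for *Tnnt2*, with no histone promoter peak. These *Tnnt2* peaks lay just beyond the end of the gene, with summits 3093 and 3106 bp downstream of an annotated start. Over the first RefSeq promoter sequence of *Tnnt2* ATAC-seq was 7.4 and 5.56, and no peak covered the second. The 92.8 kb of the pair held 26 and 21 ATAC-seq peaks, of which 20 and 18 overlapped a peak of the other replicate. The only H3K27me3 peak shared by replicates there, 4.13 and 5.48, lay nearest to *Lad1* between both genes.

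In the pair of slow *Tnnt1* and cardiac *Tnni3*, *Tnnt1* had ATAC-seq folds of 5.8 and 6.54 and H3K27ac folds of 4.22 and 4.05. The H3K27ac peaks of *Tnnt1* did not overlap each other and lay at percentiles 2.46 and 1.56 of their lists. *Tnni3* had ATAC-seq folds of 14.6 and 12.4, H3K4me3 folds of 3.77 and 3.37 and an H3K27ac peak of 3.83 in replicate 1 only. The strongest ATAC-seq peaks in both replicates, and the stronger H3K4me3 and the H3K27ac peak of replicate 1, lay nearest to the antisense gene *Gm15873*. The peaks nearest to *Tnni3* itself were 6.92 and 6.22 for ATAC-seq and 3.41 and 3.37 for H3K4me3.

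Among the thick filament and M-band genes 14 of 17 had ATAC-seq promoter peaks in both replicates, 5 had H3K4me3, 7 had H3K27ac and 1 had H3K27me3. For protein-coding genes these shares were 67.8%, 60.8%, 46.6% and 4.81%. Among the thick filament and M-band genes only *Mybpc1* kept both active marks when peaks had to lie nearest to the gene itself. The strongest values belonged to windows shared with a neighbour. *Myom1*, the M-band protein myomesin, had H3K4me3 folds of 46.8 and 36.1, H3K27ac folds of 41.4 and 30.5 and, at different sites, ATAC-seq folds of 10.2 and 10.5. No histone peak in its window lay nearest to *Myom1*, the nearest starts being those of *Myl12a* and *Myl12b*.

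Of the 5 myosin light chain genes, *Myl4*, *Mylpf* and *Myl3* shared their windows with a neighbour. *Myl4*, the embryonic and atrial essential light chain, had H3K4me3 folds of 37.7 and 22.7 and H3K27ac folds of 29.8 and 21.1, with the strongest histone summits nearest to *Cdc27*. Over its RefSeq promoter ATAC-seq was 21 and 10.3, and its strongest ATAC-seq peaks, 22.1 and 14.1, were at a later start and did not overlap, the first having no peak of replicate 2 over it. *Mylpf*, the fast regulatory light chain, had H3K4me3 folds of 36.1 and 26.5, H3K27ac folds of 8.04 and 9.25 and ATAC-seq folds of 17.2 and 16.9. Its strongest histone summits lay nearest to *Tbc1d10b*, and the H3K4me3 peaks nearest to *Mylpf* itself were 4.82 and 3.81. The RefSeq promoter of *Mylpf*, chr7:127211358-127211657, lay further into the gene, and no peak of any library covered it.

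*Myl3*, the slow and ventricular essential light chain, had H3K4me3 folds of 24.4 and 21 and H3K27ac folds of 8.05 and 6.25. Its ATAC-seq folds were 16.4 and 14.7. The strongest summits of these assays lay nearest to *Pth1r*, the parathyroid hormone receptor gene. The closest annotated starts of both genes were 858 bp apart. *Myl3* was the one slow gene with H3K27me3, at 3 and 5.13. The first had a −log10 q of 0.0394 and the second lay nearest to *Pth1r*. The strongest H3K27me3 peaks nearest to *Myl3* itself were 3 and 3.62, at different sites. A weaker peak of replicate 2, 3.08, overlapped that of replicate 1. *Myl2*, the slow regulatory light chain, was open only, at 10.8 and 9.19.

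*Myl1*, the fast essential light chain (chr1:66924295-66945404, minus strand), had no promoter peak in any library. Its nearest ATAC-seq peak lay 3.95 and 3.92 kb from a start and its nearest H3K27ac peak 70.9 and 71.1 kb away. That ATAC-seq peak, inside the gene, had folds of 17.4 and 17.9, and holds a CAGCTG and a TATAAA. It is shown because the accessible site of *Myl1* lies outside its promoter window.
*Myl1* intragenic open site, chr1:66940996-66941195, plus strand: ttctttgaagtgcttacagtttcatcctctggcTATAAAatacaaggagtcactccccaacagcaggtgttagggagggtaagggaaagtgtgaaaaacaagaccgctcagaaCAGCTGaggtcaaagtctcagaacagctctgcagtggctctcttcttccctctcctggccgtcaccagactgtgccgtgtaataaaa

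*Mybpc1*, slow myosin-binding protein C (chr10:88518279-88605152, minus strand), carried both active marks at its own start, weakly. H3K4me3 folds were 6.04 and 3.45, at percentiles of 7.9 and 1.61. Over the printed sequence H3K27ac was 5.75 and 4.14 and ATAC-seq 7.67 and 10.8, and the strongest H3K27ac peak of replicate 2, 4.41, lay 808 bp from the start. Its strongest ATAC-seq peak of replicate 1, 94.1, was a narrow peak at chr10:88525759-88525897, far from this start and 2546 bp from an internal annotated start, that replicate 2 lacked. *Mybpc2*, the fast paralogue, had ATAC-seq folds of 8.02 and 5.53 and an H3K4me3 fold of 5.74 in replicate 1. A replicate 2 peak overlapped it but came no nearer than 3.2 kb to a start, just outside the window, so that the promoter was counted in replicate 1 only.

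*Ttn*, titin, the elastic filament that spans from Z-disc to M-band, was open only at 9.27 and 14.3. The M-band genes *Myom2* and *Myom3* were open only as well, at 5.41 and 6.75 and at 5.48 and 7.06. *Myh7*, slow and beta-cardiac myosin heavy chain (chr14:54970684-54994626, minus strand), had H3K27ac folds of 6.13 and 6.62 and ATAC-seq folds of 11.9 and 12 without H3K4me3. Its H3K27ac summits lay 2621 and 2618 bp upstream of the start.

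The other skeletal myosin heavy chains lie in 1 cluster in the order *Myh3*, *Myh2*, *Myh1*, *Myh4* and *Myh8*, all on the plus strand of chromosome 11. With 10 kb added at either end the cluster spans 250 kb. ATAC-seq listed 31 and 27 peaks there, of which 22 and 24 overlapped a peak of the other replicate. H3K4me3 had 1 peak per replicate, H3K27ac 5 and 2, and H3K27me3 none. The H3K4me3 peak, 3.83 and 2.81, lay between *Myh3* and *Myh2* nearest to the long non-coding gene *2310065F04Rik*, and not at a myosin promoter.

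Accessibility was uneven along the cluster. Embryonic *Myh3* had ATAC-seq promoter folds of 7.76 and 7.75 and type IIa *Myh2* of 5.56 and 7.43. *Myh2* also had an H3K27ac peak of 5.73 in replicate 1 only. Type IIb *Myh4* and perinatal *Myh8* had single peaks of 7.83 and 5.45 in replicate 1 and none in replicate 2, where the nearest lay 38.2 and 33.8 kb away. The open sites shared by replicates thus ran from *Myh3* to just upstream of *Myh1* and lay again beyond *Myh8*, with none inside *Myh1*, *Myh4* or *Myh8*.

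*Myh1*, type IIx, was the 1 gene of the cluster with replicated H3K27ac, at 11.3 and 7.24, beside ATAC-seq folds of 15.4 and 12.1. Its broad H3K27ac peaks, chr11:67198791-67200611 in replicate 1 and chr11:67198621-67200297 in replicate 2, spanned the start of *Myh1* and that of the antisense gene *9430073C21Rik*. Which of these genes the mark belongs to was not tested. The second shared H3K27ac site, 7.2 and 4.34, lay between *Myh8* and *Myh13*, where ATAC-seq was 13.9 and 16. Both open sites are shown since they carry the replicated H3K27ac of the cluster.
Open site upstream of *Myh1*, chr11:67199402-67199601, plus strand: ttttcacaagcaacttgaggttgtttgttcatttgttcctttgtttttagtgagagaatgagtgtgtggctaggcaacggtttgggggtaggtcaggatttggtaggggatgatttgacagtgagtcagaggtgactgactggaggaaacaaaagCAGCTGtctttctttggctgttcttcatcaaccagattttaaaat
Open site between *Myh8* and *Myh13*, chr11:67313818-67314017, plus strand: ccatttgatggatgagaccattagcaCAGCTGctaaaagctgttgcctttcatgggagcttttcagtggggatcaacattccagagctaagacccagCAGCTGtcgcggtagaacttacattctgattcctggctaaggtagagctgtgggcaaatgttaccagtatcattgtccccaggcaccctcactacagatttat
The site upstream of *Myh1* holds 1 CAGCTG and that beyond *Myh8* holds 2. Among 94374 windows of 200 bases around the ATAC-seq summits of replicate 2, 27.1% held CAGCTG and 3.88% held TATAAA.

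**Figure D3:**
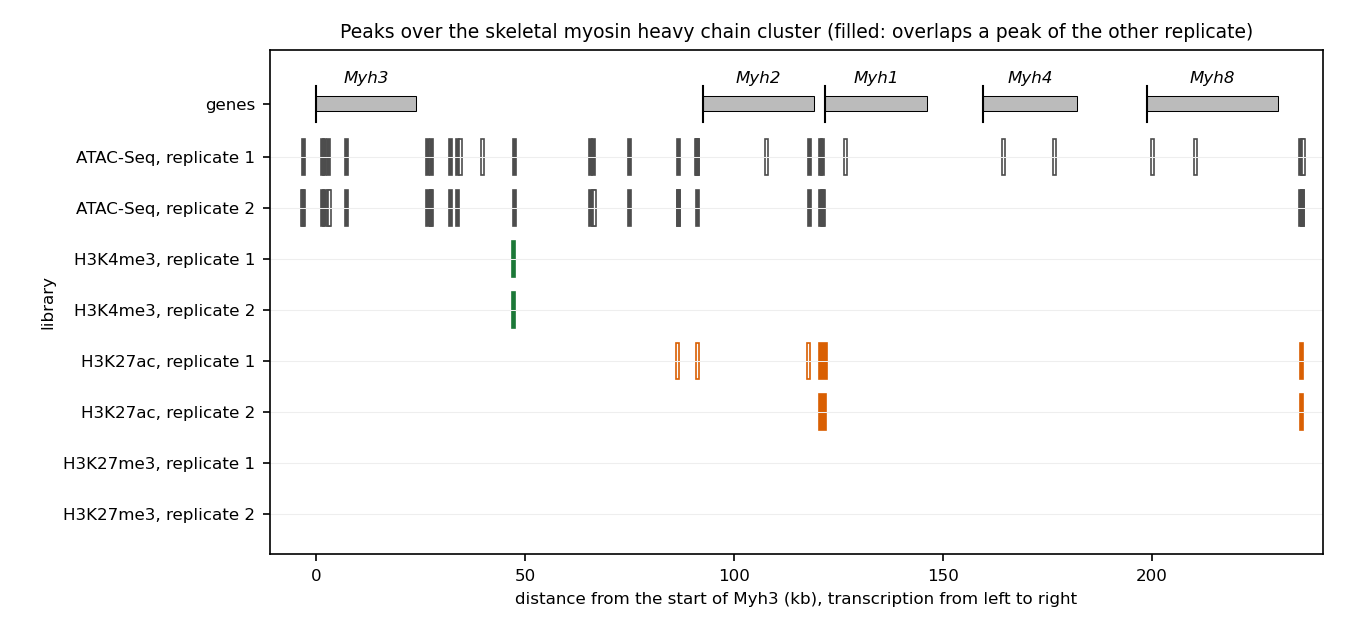
Peaks of the 8 libraries over the skeletal myosin heavy chain cluster, in kb from the start of *Myh3*; grey bars are genes with their start at the left. Filled marks overlap a peak of the other replicate and hollow ones do not, with narrow peaks widened to stay visible. Filled ATAC-seq marks stop at the upstream edge of *Myh1* and reappear past *Myh8*, and the filled H3K27ac marks are those 2 places.

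Of the Z-disc genes 5 of 6 had ATAC-seq promoter peaks in both replicates, 2 had H3K4me3, 1 had H3K27ac and 0 had H3K27me3. Protein-coding genes had them at 67.8%, 60.8%, 46.6% and 4.81%. *Actn3*, the fast alpha-actinin that cross-links actin, had H3K4me3 folds of 21.8 and 12.3, H3K27ac folds of 8.81 and 9.93 and ATAC-seq folds of 14.2 and 12.9. Its strongest summits lay nearest to *Zdhhc24*, 759 bp away between starts, and the H3K27ac peaks nearest to *Actn3* itself, 5.48 and 4.41, were at different sites and did not overlap. *Actn2*, the alpha-actinin of both fibre types, had H3K4me3 at its own start, 6.64 and 4.76, and ATAC-seq folds of 12.7 and 16.5.

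The remaining Z-disc genes had no replicated promoter mark. *Tcap*, the titin cap, had the weakest ATAC-seq promoter peaks of the 43 genes, 3.83 and 4.33. *Ldb3*, which encodes ZASP, had 8.41 and 6.48. *Myoz1*, the fast calsarcin, had 8.8 and 8.03 with an H3K27ac peak of 5.26 in replicate 1 only. Its slow counterpart *Myoz2* (chr3:123006206-123035015, minus strand) had no promoter peak in any library, and its nearest ATAC-seq peak was 36.1 and 50 kb away.

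All 6 genes of calcium handling and energy supply had ATAC-seq promoter peaks in both replicates. H3K4me3 was at 3 of them, H3K27ac at 2 and H3K27me3 at 2. The shares of protein-coding genes were 67.8%, 60.8%, 46.6% and 4.81%. *Ryr1*, the calcium release channel (chr7:29003344-29125179, minus strand), had H3K4me3 folds of 9.65 and 7.73 and ATAC-seq folds of 13.6 and 13, all at its first start. Its H3K27ac folds, 7.66 and 7.72, belonged to peaks 81.8 and 81.5 kb inside the gene, nearest to the microRNA gene *Gm44408*, where weaker H3K4me3 peaks of 4.34 and 4.4 lay as well. H3K27ac was thus listed at the internal site and not at the first start of *Ryr1*.

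*Atp2a1*, the fast calcium pump SERCA1, had H3K27ac folds of 7.28 and 5.52 at 2473 and 2404 bp upstream of a start and ATAC-seq folds of 13.9 and 12.5. Its H3K4me3 peak, 4.85, was in replicate 1 only. *Casq1*, calsequestrin, the calcium store of the reticulum, was open only at 9.2 and 9.86, with an H3K27ac peak of 3.66 in replicate 1 only.

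*Pvalb*, parvalbumin, the calcium buffer of fast fibres, had H3K4me3 folds of 4.93 and 5.13, ATAC-seq folds of 10.5 and 10.8 and an H3K27me3 peak of 3.76 in replicate 2 only. The H3K4me3 of *Pvalb*, as at *Tpm3*, covered the internal RefSeq start, with a CpG ratio of 0.732, and not the first one, with 0.199. *Ckm*, muscle creatine kinase, had H3K4me3 folds of 11.7 and 9.31, H3K27me3 folds of 6 and 3.74 and ATAC-seq folds of 11.1 and 11.2. All histone peaks in its window lay nearest to *Klc3*, whose start was 672 bp from the closest annotated start of *Ckm*.

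*Cacna1s*, the voltage sensor that gates the release channel, had H3K27me3 folds of 4.13 and 3.76 and ATAC-seq folds of 12.3 and 11.1 without H3K4me3 or H3K27ac. Its H3K27me3 summits lay nearest to *Ascl5*, whose start is 1946 bp away. H3K27me3 nearest to the gene itself in both replicates was left at *Acta1* and *Myl3*, whose replicate 1 peaks do not pass a q limit of 0.05, and at that limit the genes left were *Ckm* and *Cacna1s*. No gene of the 43 met both conditions.

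Promoters of all isoform classes were mostly accessible within their windows. ATAC-seq promoter peaks in both replicates were found at 5 of 6 embryonic or cardiac genes, 9 of 10 slow genes, 12 of 15 fast genes and 12 of 12 genes of both fibre types. H3K4me3 was found at 2, 4, 3 and 7 of them, beside 60.8% of protein-coding genes, and H3K27ac at 1, 6, 4 and 3, beside 46.6%. H3K27me3 was found at 0, 1, 0 and 3, beside 4.81%, and the ATAC-seq share of protein-coding genes was 67.8%. With peaks nearest to the gene itself H3K4me3 held 1, 2, 2 and 5 genes and H3K27ac held 0, 4, 2 and 1, beside 51.8% and 38.8%. Differences between classes were not tested.

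The 4 slow genes with H3K27ac nearest to themselves, *Myh7*, *Tnnt1*, *Tpm3* and *Mybpc1*, are 40% of 10 and near the 38.8% of all protein-coding genes. Among them the *Tnnt1* peaks did not overlap between replicates, and the *Tpm3* mark lay at the internal starts. In replicate 1 alone 6 of 10 slow and 8 of 15 fast genes had H3K27ac, with *Myh2*, *Tnnt3*, *Myoz1* and *Casq1* as the 4 that replicate 2 lacked. The median ATAC-seq fold was 10.8 and 12.4 for embryonic or cardiac genes, 10.8 and 9.19 for slow, 8.41 and 8.95 for fast and 10.6 and 10.8 for both fibre types. These medians lie within the range of each other class. The median H3K27ac fold of genes with a peak was 7.09 and 6.44 for slow genes and 6.51 and 8.25 for fast genes, which is a different order in each replicate.

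**Figure D4:**
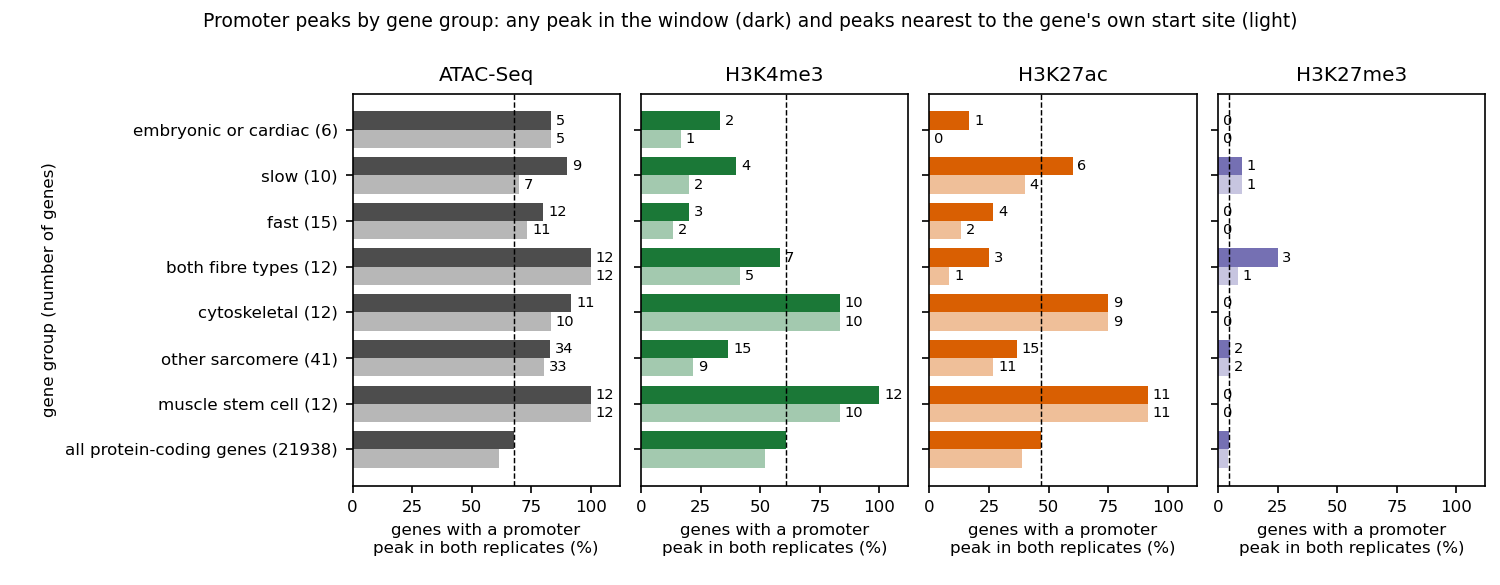
Percent of genes with a promoter peak in both replicates, by isoform class and for lists of other genes; dark bars count any peak in the window, light bars peaks nearest to the start of the gene itself, and numbers are genes. Dashed lines are all protein-coding genes, at 67.8% for ATAC-seq and 60.8% for H3K4me3; all isoform classes exceed the first and lie below the second.

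Lists of related genes were set beside them. In the order ATAC-seq, H3K4me3, H3K27ac and H3K27me3, protein-coding genes had shares of 67.8%, 60.8%, 46.6% and 4.81%. Of 12 genes of the non-muscle actin cytoskeleton, 11 had ATAC-seq promoter peaks in both replicates, 10 had H3K4me3, 9 had H3K27ac and 0 had H3K27me3. The H3K27ac folds were 29.9 and 24.3 at *Myh9*, non-muscle myosin heavy chain, and 28.4 and 22.4 at *Actb*, beta-actin. They were 41.4 and 30.5 at *Myl12a*, which are the peaks counted above for *Myom1*, and 20.3 and 16.2 at *Myl6*. *Actg1* had no listed peak and was not analysed here further. The non-muscle paralogues thus had active marks at a larger share of genes than the 43 sarcomere genes, and this difference was not tested.

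Of 41 other sarcomere genes, 34 had ATAC-seq promoter peaks in both replicates, 15 had H3K4me3, 15 had H3K27ac and 2 had H3K27me3. The H3K27ac folds were 34.9 and 30.2 at *Atp2a2*, the SERCA2 pump, 19.2 and 15.4 at *Flnc*, filamin C, and 19.7 and 15.4 at *Eno3*, muscle enolase. *Myl6b* shared the *Myl6* peaks.

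Gene bodies held more ATAC-seq peaks than those of protein-coding genes. The part of the gene outside all promoter windows, present for 36 of the 43 genes and 1234 kb in all, held 105 and 65 ATAC-seq peaks, or 8.51 and 5.27 per 100 kb. Protein-coding genes had 5.66 and 3.78 per 100 kb. The non-muscle cytoskeletal genes had more, 17.8 and 15.7, as had the MuSC markers, 16 and 13.8, and the other sarcomere genes, 9.74 and 6.45. Blood markers, at 5.25 and 3.82, and neuronal markers, at 4.72 and 2.09, had fewer. Fibro-adipogenic and endothelial markers had fewer in replicate 1 and more in replicate 2. A body peak in both replicates was found at 22 of 36 genes for ATAC-seq (61.1%), against 37.7%. For H3K4me3 it was found at 3, *Myl4*, *Ldb3* and *Ryr1*, against 6.41%, for H3K27ac at 3, *Myom1*, *Ldb3* and *Ryr1*, against 8.83%, and for H3K27me3 at 0, against 1.42%.

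*Myom1* had 18 and 11 ATAC-seq body peaks, *Ldb3* 12 and 8 and *Ryr1* 11 and 6. Titin, the longest gene at 279 kb, had 7 and 1. *Ldb3* (chr14:34526603-34588682, minus strand) had the strongest body marks, with H3K4me3 folds of 24.8 and 19.4 and H3K27ac folds of 9.2 and 6.99 at 39.4 and 39.3 kb from the gene start. No annotated start lay within 26 kb of this site, whose H3K4me3 peaks were chr14:34548447-34549678 and chr14:34548522-34549567. The open-only call of *Ldb3* therefore holds for its annotated promoters and not for the gene as a whole.

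The replicated body peaks of *Ryr1*, 6.46 and 4.44 for H3K4me3 and 7.66 and 4.91 for H3K27ac, lay 84.9 to 85.3 kb inside the gene, next to the internal site above. The replicated H3K27ac body peak of *Myom1* had folds of 3.32 and 5.52. The H3K4me3 body peaks of *Myl4*, 6.13 and 4.8, lay 73 and 67 bp from the start of the processed pseudogene *Gm11663*.

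**Figure D5:**
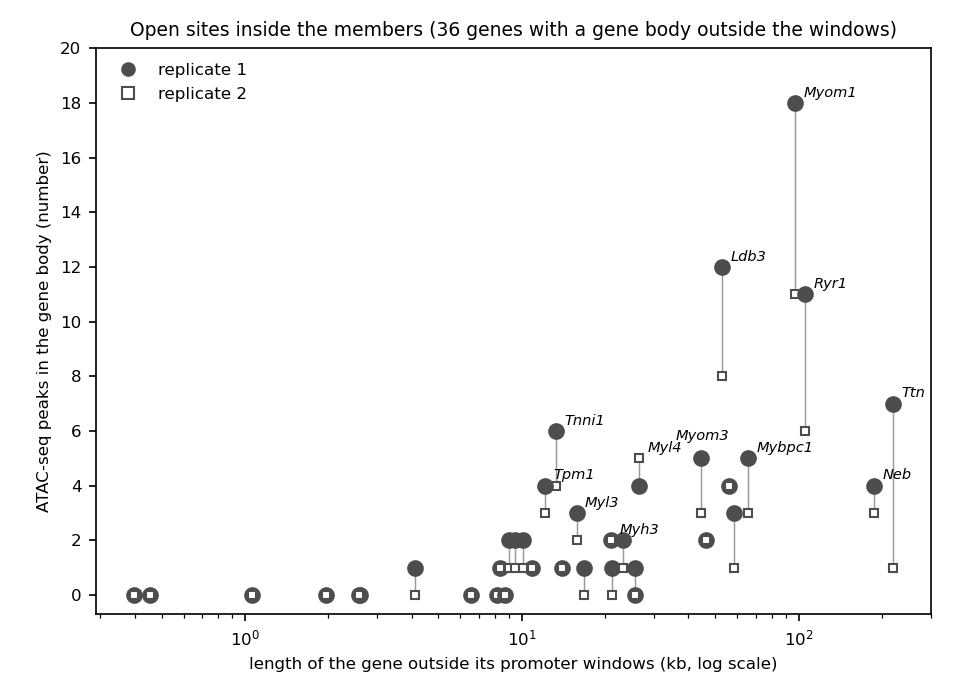
ATAC-seq peaks inside each of 36 genes outside its promoter windows (vertical axis, number) against the length of that part (horizontal axis, kb, log scale). Filled circles are replicate 1 and hollow squares replicate 2, joined by a line for each gene and drawn on top of each other where equal; *Myom1* lies highest at 18 and 11, and *Ttn*, the longest, has 7 and 1.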

How the data were processed

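Peak lists of 8 MuSC libraries were used. According to the study's methods and the submitters' processing notes, the authors trimmed reads with Trim Galore 0.6.10, aligned them to mm10 with BWA 0.7.17-r1188, dropped duplicate, poorly mapped and blacklisted reads, shifted ATAC-seq reads for Tn5 and called peaks per library with MACS2 2.2.6. The deposited lists give the fold enrichment (a ratio) at the summit and the p-value and q-value as −log10, all made by the authors, beside a score from the authors' peak caller that was not used here; the H3K27me3 lists go down to q-values above 0.05. Read depth is not in these lists, so that no interval that needs it is given, and fold enrichments were compared within a list.

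Genes and start sites came from GENCODE M21 on 21 assembled chromosomes. A peak was assigned to a promoter at 1 bp of overlap with 3 kb either side of any start, and to the gene body when it overlapped the gene outside these windows. Python 3.11.15 and numpy 2.4.6 were used, and on simulated data the overlap counts were equal to a direct count for 400 of 400 genes. No test was run, since there is 1 condition and genes are not replicates.

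All 43 genes are accounted for by promoter state. Values in every library are given for genes with H3K27ac or H3K27me3 in either replicate, for the strongest H3K4me3 gene of each class and role by the lower replicate, for genes whose H3K4me3 replicates differ, for the myosin cluster and troponin pairs, and for the 3 genes with most gene body peaks; of the other lists up to 4 genes with the highest H3K27ac are named. The genes and lists were chosen with earlier results of these data known. Alternatives were 1 kb windows, starts of basic transcripts, −log10 q of at least 5, q of at most 0.05 for H3K27me3, nearest starts and single replicates. Other samples of the series were not analysed here.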

Additional observations from a re-analysis of the deposited data

How the results depend on the processing

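The counts of genes with peaks in both replicates were recomputed under each alternative; 117 recomputed counts stayed within 1.5 times the reported one, among them all ATAC-seq counts, and 49 did not. With the nearest start among all genes H3K4me3 fell from 16 genes to 10, H3K27ac from 14 to 7 and H3K27me3 from 4 to 2; H3K4me3 with H3K27ac fell from 10 to 3 and H3K4me3 with H3K27me3 from 2 to 1. Embryonic or cardiac genes then had 1 with H3K4me3 and 0 with H3K27ac, slow genes 2 with H3K4me3 and fast genes 2 with H3K27ac. With the nearest start among protein-coding genes, chosen after seeing the data, these values were 10, 9, 2, 4 and 1 in the same order, then 1, 0 and 2 for the classes, with the fast H3K27ac count at 3. Without the 11 genes that share a window, also chosen after seeing the data, H3K4me3 was at 9, H3K27ac at 7 and H3K27me3 at 1 of 32 genes, the states H3K4me3 with H3K27ac at 4, with H3K27me3 at 1 and H3K27me3 without H3K4me3 at 0. Embryonic or cardiac genes then had 1 and 0 with H3K4me3 and H3K27ac, slow genes 2 with H3K4me3, and fast genes 1 and 1. This alternative has fewer genes by construction.

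With windows of 1 kb H3K27me3 was at 2 genes, H3K4me3 with H3K27me3 at 1, H3K27ac without H3K4me3 at 2, H3K27me3 without H3K4me3 at 0 and no peak at 11, while 1 gene had H3K27me3 in its body. With starts of basic protein-coding transcripts H3K27me3 was at 2, H3K4me3 with H3K27me3 at 1 and no peak at 9. With −log10 q of at least 5 H3K27me3 and both of its states were at 0, and with q of at most 0.05 H3K27me3 was at 2 and H3K4me3 with H3K27me3 at 1. Leaving out 1 replicate gave 4 to 7 genes with H3K27ac without H3K4me3, 2 to 5 with no peak, 1 to 2 embryonic or cardiac and 4 to 8 fast genes with H3K27ac, 3 to 5 fast genes with H3K4me3, 3 to 7 with body H3K27ac and 0 to 1 with body H3K27me3; the higher H3K27ac, H3K4me3 and the lower no-peak values are those without replicate 2. Under all 7 alternatives of window, starts, q limit, summit and nearest start, with both replicates and all 43 genes kept, 26 genes kept ATAC-seq, 8 kept H3K4me3 (*Actn2*, *Mylpf*, *Tpm1*, *Tpm2*, *Tpm3*, *Mybpc1*, *Ryr1* and *Pvalb*), 3 kept H3K27ac (*Actn3*, *Tpm1* and *Tpm3*) and 0 kept H3K27me3. The H3K27ac peaks nearest to *Actn3* did not overlap between replicates, and the H3K4me3 of *Mylpf* did not cover its RefSeq promoter. The cause of these moves was not tested. No paired analysis was possible because the result comes from no test.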

Other observations

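The 41 other sarcomere genes also carried marks inside the gene. A body peak in both replicates was found at 23 of the 35 with a gene body for ATAC-seq, beside 37.7% of protein-coding genes. For H3K27ac it was found at 7, beside 8.83%, namely *Tmod1*, *Flnc*, *Smyd1*, *Trdn*, *Jph2*, *Srl* and *Mb*. *Smyd1*, a gene of myosin assembly, *Trdn*, triadin of the release channel complex, and *Mb*, myoglobin, had no promoter peak in both replicates of any library. Their state of no peak, like the open-only state of *Ldb3*, thus holds for the promoter windows alone.

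The ATAC-seq replicates differed in their strongest single peaks. At the 43 genes 169 of 260 peaks of replicate 1 (65%) and 156 of 177 peaks of replicate 2 (88.1%) overlapped a peak of the other replicate. At a fold of at least 15, a limit chosen after seeing the data, 9 of 19 peaks of replicate 1 and 0 of 9 of replicate 2 had no such overlap. Over all peaks of that strength the share without overlap was 38.2% in replicate 1 and 0% in replicate 2. The peak of 94.1 near *Mybpc1* is one of the 9. The source of these peaks was not tested.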
